A study of Rattus norvegicus with 6 samples.

Results

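Cytochrome P450 genes are the genes of the authors' annotated peak table whose symbol is Cyp followed by a digit. The rule gave 66 of the 14390 genes in the table, and 997 of its 159452 peaks were assigned to them. The table annotates peaks of 1 chromatin immunoprecipitation (ChIP-seq) library, made with an antibody labelled 1804 from PC12 cells that stably express α1ACT, a transcription factor translated from the human CACNA1A transcript. PC12 is a rat pheochromocytoma line, derived from a tumour of adrenal chromaffin cells. The other libraries were an M2 (anti-FLAG) precipitation and an input of the α1ACT line, titled Q11, and a 1804 precipitation, an M2 precipitation and an input of PC12 cells carrying the empty pCDNA3 vector. The annotated table holds 159452 of the 161730 peaks listed for the α1ACT 1804 library, and its name marks it as Q11 only. It lacks the sites near Cyp genes that the empty-vector lists share. All cells were labelled as passages 18 to 20 and were fixed with 1% formaldehyde for 10 min. The labels do not say what the 1804 antibody recognises, whether either line is 1 clone, or what drives the transgene, and the design text speaks of tissues at day 3 where the labels name PC12 cells. Each of the 6 groups held 1 library, so there is no replicate error, no test between groups and no p-value. Intervals given with shares are exact 95% Clopper-Pearson intervals and cover counting error only. They treat the counted genes or peaks as separate draws, although neighbouring peaks and gene copies are not.

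Cytochrome P450 enzymes are heme proteins that insert oxygen into small molecules, using electrons passed on by a reductase in the endoplasmic reticulum or by adrenodoxin in mitochondria. Most members of families 1 to 3 oxidise drugs and other foreign compounds, mainly in liver. Most other families make or break down steroid hormones, bile acids, vitamin D, retinoids and fatty acid mediators. Some members of family 2 are grouped with these, namely Cyp2r1 with vitamin D, and Cyp2u1 and the Cyp2j genes with fatty acids. In rodents many P450 genes stand in tandem arrays of close copies. In the adrenal gland, the steroid-making P450s belong to the cortex, whereas chromaffin cells belong to the medulla.

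A promoter peak is one whose deposited distance to the transcription start site (TSS) is at most 1000 bp in either direction, and every other peak is called distal. Of the 66 Cyp genes, 9 had a promoter peak. They were Cyp51, Cyp20a1, Cyp2r1, Cyp2d1, Cyp4a3, Cyp2s1, Cyp2c11, Cyp4f6 and Cyp8b1. The promoter sequences of the 2 genes with the highest promoter signal and of the 3 with the lowest are shown to let their base composition be compared. Each is the RefSeq sequence on GRCr8, from 250 bases before to 50 bases after the annotated start, 5′ to 3′ on the gene's strand. Capitals mark matches, on either strand, to 4 short motifs. The core of the TATA box was searched as TATAAA. The GC box was searched as GGGCGG. The half-site of nuclear receptors was searched as AGGTCA. The core of the aryl hydrocarbon receptor element was searched as GCGTG. The peaks lie on the older build rn5 and were not placed within these sequences.
Cyp51: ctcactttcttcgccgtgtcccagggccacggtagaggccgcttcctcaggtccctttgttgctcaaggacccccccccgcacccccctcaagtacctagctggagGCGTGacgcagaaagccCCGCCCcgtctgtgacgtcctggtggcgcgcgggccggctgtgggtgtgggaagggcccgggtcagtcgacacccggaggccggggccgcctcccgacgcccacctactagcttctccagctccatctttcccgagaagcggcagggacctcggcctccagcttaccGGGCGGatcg
Cyp20a1: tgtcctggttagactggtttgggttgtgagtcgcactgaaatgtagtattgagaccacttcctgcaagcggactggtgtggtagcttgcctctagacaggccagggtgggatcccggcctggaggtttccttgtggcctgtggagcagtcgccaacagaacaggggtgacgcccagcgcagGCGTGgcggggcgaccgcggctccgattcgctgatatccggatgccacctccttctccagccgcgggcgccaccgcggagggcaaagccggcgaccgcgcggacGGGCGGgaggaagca
Cyp2c11: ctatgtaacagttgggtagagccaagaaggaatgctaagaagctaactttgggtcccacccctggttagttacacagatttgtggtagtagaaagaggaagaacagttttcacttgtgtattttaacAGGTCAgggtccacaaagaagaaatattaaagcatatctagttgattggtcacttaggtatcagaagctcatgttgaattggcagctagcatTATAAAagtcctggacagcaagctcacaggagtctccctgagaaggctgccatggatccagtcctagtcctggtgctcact
Cyp4f6: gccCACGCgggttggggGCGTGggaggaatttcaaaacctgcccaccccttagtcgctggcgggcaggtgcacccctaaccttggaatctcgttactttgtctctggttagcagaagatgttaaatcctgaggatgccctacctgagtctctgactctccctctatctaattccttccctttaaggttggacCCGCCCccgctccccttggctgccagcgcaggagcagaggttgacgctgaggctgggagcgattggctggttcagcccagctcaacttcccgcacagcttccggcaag
Cyp8b1: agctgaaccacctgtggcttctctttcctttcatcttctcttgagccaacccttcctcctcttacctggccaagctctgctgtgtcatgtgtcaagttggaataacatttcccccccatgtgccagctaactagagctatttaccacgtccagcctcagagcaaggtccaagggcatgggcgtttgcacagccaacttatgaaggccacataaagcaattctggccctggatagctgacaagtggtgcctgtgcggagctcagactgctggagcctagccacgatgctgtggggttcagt
The Cyp51 sequence is 69.0% G and C and holds 27 CpG dinucleotides, and the Cyp20a1 sequence is 64.7% G and C with 26. The Cyp2c11 sequence is 43.7% G and C with 0 CpG, the Cyp4f6 sequence 58.7% with 13 and the Cyp8b1 sequence 53.0% with 4. Among these 5, the pair with the higher promoter signal was the richer in CpG. The 4 sequences not shown do not keep that order. Cyp2r1, with a signal of 3.43, holds 12 CpG, Cyp2d1, with 2.99, holds 4, Cyp4a3, with 2.94, holds 1, and Cyp2s1, with 2.93, holds 19.

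Promoter peaks were less frequent among Cyp genes than in the table as a whole. The 9 of 66 Cyp genes were 13.6% (interval 6.43 to 24.3%), against 43.2% of all table genes, 6219 of 14390 (42.4 to 44.0%). Counted over peaks, 10 of the 997 Cyp peaks were promoter peaks, 1.00% (0.482 to 1.84%), against 5.75% of all 159452 peaks. RefSeq lists 78 curated Cyp genes, of which 66 are in the table, 84.6%, against 74.7% of all 18539 curated genes. Over these curated genes, 11.5% of the Cyp genes had a promoter peak (5.41 to 20.8%), against 32.9% of all. The 12 curated Cyp genes with no assigned peak were Cyp11b2, Cyp11b2l1, Cyp17a1, Cyp2c23, Cyp2c55, Cyp2d4, Cyp2d5, Cyp2t1, Cyp2w1, Cyp4a1, Cyp4a2l1 and Cyp4f39. The authors assigned peaks on the older build rn5. Whether their annotation held each curated gene was not checked, and a gene missing from it could have no assigned peak.

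The gap narrowed with distance from the TSS. Within 3000 bp, 24 Cyp genes had a peak, 36.4%, against 52.3% of all table genes. Within 10 kb the shares were 66.7% of Cyp genes and 72.0% of all table genes, and within 50 kb they were 97.0% and 96.6%. The nearest peak lay a median of 5054 bp from the TSS of a Cyp gene, against 2453 bp for all table genes. A Cyp gene had a median of 7 assigned peaks, against 4 for all table genes. A gene is in the table only if a peak was assigned to it, so both shares must near 100% as the distance grows. Within 100 kb they were 100% and 99.5%. The like shares at 50 kb therefore do not compare the 2 sets, whereas at the start site itself the Cyp share was the lower.

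The 10 promoter peaks did not have the higher signal that promoter peaks had in the whole table. The signal is the authors' own value per peak, with no stated scale, and ranks peaks within this list. Promoter peaks of Cyp genes had a median signal of 2.97 (range 2.43 to 6.17, n = 10), and their distal peaks a median of 2.97 (2.01 to 11.9, n = 987), a promoter over distal ratio of 1.00. Over all table peaks the medians were 4.36 at promoters and 2.99 at distal sites, a ratio of 1.46. With 10 promoter peaks, the Cyp median rests on few values. Signals also share levels, with 4577 table peaks holding the value of 2.78 that the Cyp2c11 and Cyp4f6 promoter peaks have. Of all 997 Cyp peaks, 47.0% fell in the upper 50% of the table by signal and 8.22% in the upper 10%.

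**Figure D1:**
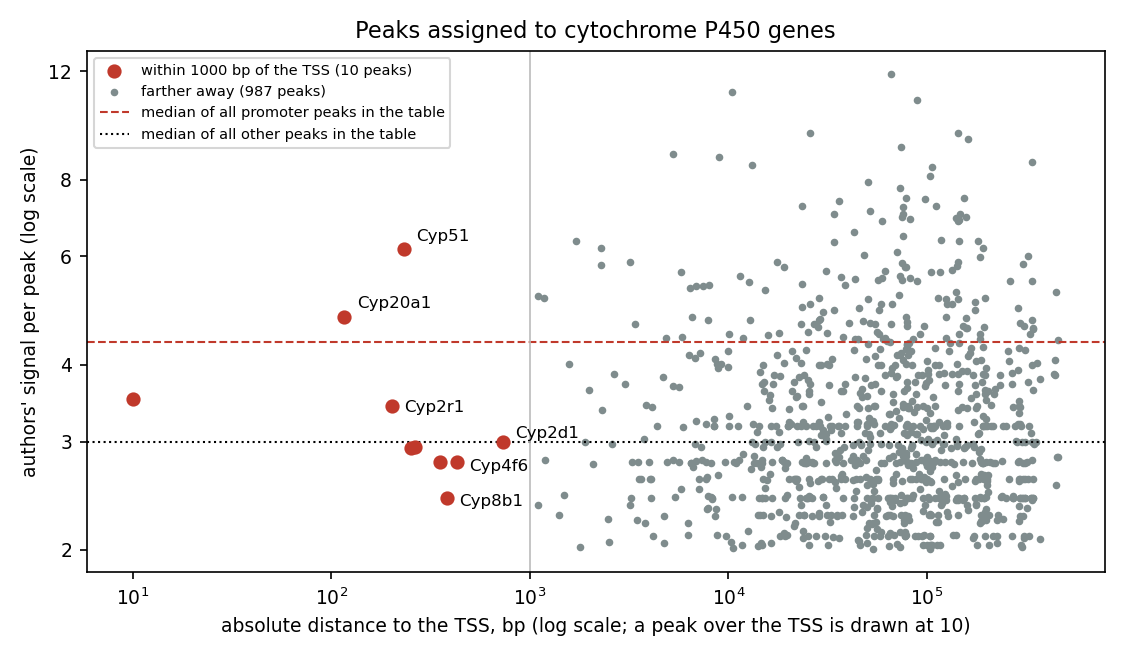
Signal (authors' value, log axis) of the Cyp peaks against the absolute distance of each to the TSS in bp, with promoter peaks in red, 6 of them named, and distal peaks in grey. The dashed and dotted lines are the medians of all promoter and all distal peaks of the table, 4.36 and 2.99. The 10 promoter peaks sit between 2.43 and 6.17, whereas distal peaks reach 11.9.

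Among genes of cholesterol, oxysterol and bile acid metabolism, 2 of 7 had a promoter peak (28.6%, 3.67 to 71.0%). Cyp51, lanosterol demethylase of cholesterol synthesis, was the only Cyp gene with more than 1 promoter peak. Its peak at chr4:27078558-27078613, 232 bp upstream, reached 6.17, above 94.6% of all table peaks. The other, at chr4:27078771-27078826, lay over the TSS with a signal of 3.51, above 65.4%. These 2 peaks lie within 500 bp of each other and count as 1 where peaks that close are merged. Cyp51 was also the only Cyp gene with a promoter peak in the upper 10% by signal, 1 of 66 genes or 1.52%, against 19.7% of all table genes. Cyp8b1, the sterol hydroxylase needed for cholic acid, had the lowest promoter signal, 2.43 at chr8:129725429-129725484, 382 bp downstream of the TSS. Cyp7a1, the rate-limiting enzyme of bile acid synthesis, had its nearest peak 10128 bp from the TSS. The nearest peaks of Cyp27a1, the mitochondrial sterol hydroxylase, and Cyp7b1, the oxysterol hydroxylase, were at 10373 and 6861 bp. Cyp46a1, which makes the brain oxysterol, had one at 2485 bp upstream with a signal of 2.25.

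Cyp20a1, an enzyme with no settled substrate class, had the highest promoter signal after Cyp51. Its peak at chr9:66943580-66943635, 116 bp downstream, reached 4.79, above 86.9% of table peaks. Of the 5 vitamin D and retinoid genes, 1 had a promoter peak (20.0%, 0.505 to 71.6%). It was Cyp2r1, a hydroxylase of the first step of vitamin D activation, with a signal of 3.43 at chr1:191078108-191078163, 201 bp downstream. Cyp27b1, which makes the active hormone, had a peak of signal 6.36 at 1706 bp downstream, above 95.1% of table peaks and above every Cyp promoter peak. Cyp24a1, which breaks the hormone down, had a peak 13097 bp upstream with a signal of 8.46. The retinoic acid hydroxylase genes Cyp26a1 and Cyp26b1 had their nearest peaks at 19265 and 8478 bp. Cyp27b1 and Cyp24a1 had no promoter peak, so their highest signals could only lie outside the promoter distance.

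None of the 5 steroid hormone genes of the table had a promoter peak, an exact interval of 0 to 52.2%; by the limit of 3 counts, 0 of 5 genes allows a share of up to 60.0%. Their nearest peaks lay between 1481 and 51916 bp from the TSS. Cyp11a1, the side-chain cleavage enzyme that starts steroid synthesis, had a peak 1583 bp downstream with a signal of 4.02. Cyp21a1, the adrenal 21-hydroxylase, had one 1481 bp downstream with a signal of 2.45. The aromatase gene Cyp19a1 had its nearest at 51916 bp, and the adrenal genes Cyp11b1 and Cyp11b3 had theirs at 14652 and 10542 bp.

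Of the 17 fatty acid and eicosanoid genes, 2 had a promoter peak (11.8%, 1.46 to 36.4%). The Cyp4a3 peak, at chr5:138266684-138266739 and 264 bp upstream, had a signal of 2.94. Cyp4a enzymes hydroxylate fatty acids at the chain end. The Cyp4f6 peak, at chr7:15383609-15383664 and 427 bp downstream, had a signal of 2.78, but a second Cyp4f6 peak 2290 bp upstream reached 5.82. Cyp2j10 had a peak 2289 bp upstream with a signal of 6.19. Cyp2u1, a fatty acid hydroxylase, had one of the highest signals of any Cyp gene, 8.71, at chr2:254971009-254971064 in intron 4 of 5, 8999 bp downstream.

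Of the 31 genes of families 1 to 3 grouped as foreign compound enzymes, 3 had a promoter peak (9.68%, 2.04 to 25.8%). The Cyp2d1 peak, at chr7:123615367-123615422 and 733 bp upstream, had a signal of 2.99. It was the promoter peak farthest from its TSS, and the nearest peaks beyond the distance were those of Cyp2c7 at 1093 bp and Cyp2b12 at 1105 bp. The Cyp2s1 peak, at chr1:83869218-83869273 and 251 bp upstream, had a signal of 2.93. The Cyp2c11 peak, at chr1:265418456-265418511 and 353 bp downstream, had a signal of 2.78. Cyp2c11 encodes the main male-specific liver form in rat. All 3 signals were below the median of promoter peaks over the whole table, 4.36. The dioxin-inducible genes Cyp1a1 and Cyp1b1 had their nearest peaks at 10342 and 26254 bp, and Cyp1a2 had one 1174 bp upstream with a signal of 5.13. Cyp2e1, the ethanol-oxidising enzyme, had its nearest at 3468 bp. The intervals of the role groups overlap, so these data do not set the groups in an order.

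**Figure D2:**
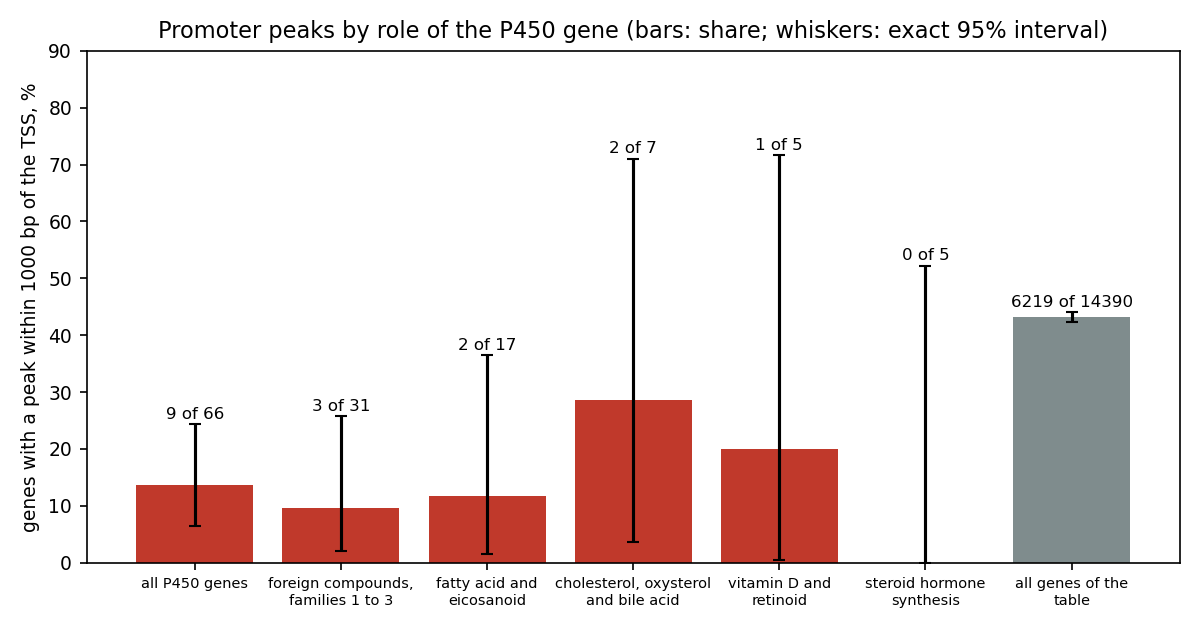
Percentage of Cyp genes with a promoter peak in each role group, with exact 95% intervals as whiskers, beside all Cyp genes and, in grey, all table genes at 43.2%. The shares run from 0 of 5 steroid hormone genes to 2 of 7 cholesterol, oxysterol and bile acid genes, all below the grey bar; the group holding Cyp20a1 alone is not drawn.

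Taken over all peaks of a role group, promoter and distal, signals differed little between groups. The median signal was 2.98 over the 670 peaks of the foreign compound genes, 3.10 over the 146 of the fatty acid genes and 2.78 over the 94 of the cholesterol, oxysterol and bile acid genes. It was 2.66 over the 51 peaks of the vitamin D and retinoid genes, 2.84 over the 29 of the steroid hormone genes and 3.18 over the 7 of Cyp20a1, against 3.02 over all table peaks. Between 1000 and 3000 bp from the TSS, signals ran from 2.02 for a Cyp2c6v1 peak 1793 bp downstream to the 6.36 of Cyp27b1. The highest in that interval after Cyp27b1, Cyp2j10 and Cyp4f6 were 5.17 at Cyp2b12 and 5.13 at Cyp1a2. The genes with a single assigned peak were Cyp2d3, with a signal of 2.44 at 8166 bp, Cyp4b1, with 3.18 at 19901 bp, and Cyp39a1, an oxysterol hydroxylase, with 5.38 at 6850 bp.

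Cyp peaks were more often intronic than peaks of the table as a whole. Introns held 353 of the 997 Cyp peaks, 35.4% (32.4 to 38.5%), against 16.2% of all table peaks. Intergenic sites held 60.4% of Cyp peaks, against 74.6% of all. Of the 353 intronic peaks, 178 (50.4%) lay in an intron of the gene they were assigned to, 139 (39.4%) in an intron of another Cyp gene and 36 (10.2%) in another gene. The authors' table gives Cyp2c7 a span of 690 kb that contains Cyp2c6v1, and 87 of the 144 peaks assigned to Cyp2c6v1 lie in an intron of Cyp2c7. It also gives Cyp3a2 a span of 921 kb. The intron share without these long spans was not computed, and the split by gene was not made for all table peaks.

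A few genes held much of the total. Cyp2c6v1 had 144 assigned peaks, Cyp2b1 97, Cyp2c24 78, Cyp2c7 57 and Cyp3a9 39, together 415 of 997 or 41.6%. All 5 belong to the drug-metabolising families, and none had a promoter peak. Over all table genes the assigned peaks per gene ran from 1 to 717, and their concentration in few genes was not computed. Within the gene and 100 kb on each side, Cyp2c6v1 had 259 peaks per Mb, Cyp2c7 230, Cyp2c24 200.3, Cyp3a9 179 and Cyp2b1 170, against a median of 68.3 over the 66 Cyp genes and 54.3 over all table genes. In all, 9 of the 66 Cyp genes (13.6%, 6.43 to 24.3%) stood in the upper 10% of table genes by this density. That interval holds the 10% that all table genes give by definition. Windows of neighbouring genes overlap, so they share peaks.

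Among distal peaks, Cyp2b1 had the highest signals, with 11.9 at chr7:99818429-99818484, 66376 bp downstream of the TSS, and 11.1 at chr7:99762506-99762561 in intron 1 of 8. Cyp2b1 is a phenobarbital-inducible liver enzyme. Cyp2c6v1 followed with 10.8 at chr1:154095490-154095545 in its own intron 5 of 8, 89617 bp downstream. Cyp2c7 had 9.51 at chr1:154381870-154381925 in intron 5 of 9. Each of these 4 signals was above 99.0% of all table peaks. Of the Cyp2b1 peaks, 21 of 97 (21.6%) were in the upper 10% of the table by signal, against 15 of 144 (10.4%) of the Cyp2c6v1 peaks.

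Clusters were set as 3 or more Cyp genes on 1 chromosome with gaps of at most 500 kb. This gave 7 clusters holding 33 genes and left 33 called single. Single means outside such a cluster, not isolated. The neighbouring pairs Cyp2c7 with Cyp2c6v1 and Cyp2c11 with Cyp2c24 count as single. Cyp2b1, Cyp2b15 and Cyp2j4 are single as placed on rn5, but stand beside other Cyp2b or Cyp2j genes on GRCr8. The comparison therefore does not set array genes against isolated genes. A promoter peak was present in 4 of 33 clustered genes (12.1%, 3.40 to 28.2%) and 5 of 33 single genes (15.2%, 5.11 to 31.9%). With gaps of at most 200 kb the shares were 1 of 22 clustered genes, 4.55%, and 8 of 44 single genes, 18.2%. With gaps of up to 1000 kb they were 5 of 35 clustered genes, 14.3%, and 4 of 31 single genes, 12.9%, so which was higher turned with the gap. The clustered genes with a promoter peak were Cyp2s1, Cyp4a3, Cyp4f6 and Cyp2d1, 1 in each of 4 clusters.

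Peak density was higher inside 6 of the 7 clusters than over their chromosomes. The chromosome value covers the whole chromosome, not only stretches that hold genes. Clusters of other genes were not compared, so this count does not set P450 clusters apart from them. The Cyp4a/Cyp4b/Cyp4x cluster of 5 genes, on chromosome 5 from 137721033 to 138316860, had 49 peaks or 82.2 per Mb, against 39.5 per Mb on chromosome 5, a ratio of 2.08. The Cyp2c cluster of Cyp2c12, Cyp2c13 and Cyp2c22 had 97.4 per Mb, and the 10-gene Cyp2a/Cyp2b/Cyp2f/Cyp2g/Cyp2s cluster 79.0, both against 66.0 per Mb on chromosome 1. The Cyp3a cluster had 65.2 per Mb, against 54.0 on chromosome 12. The cluster of Cyp1a1, Cyp1a2 and Cyp11a1 had 72.8 per Mb, against 52.9 on chromosome 8. The Cyp2d cluster had 97.9 per Mb, but from 3 peaks, against 65.4 on chromosome 7. The Cyp4f cluster of 6 genes was the exception, with 37 peaks or 52.7 per Mb, against the same 65.4, a ratio of 0.806.

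**Figure D3:**
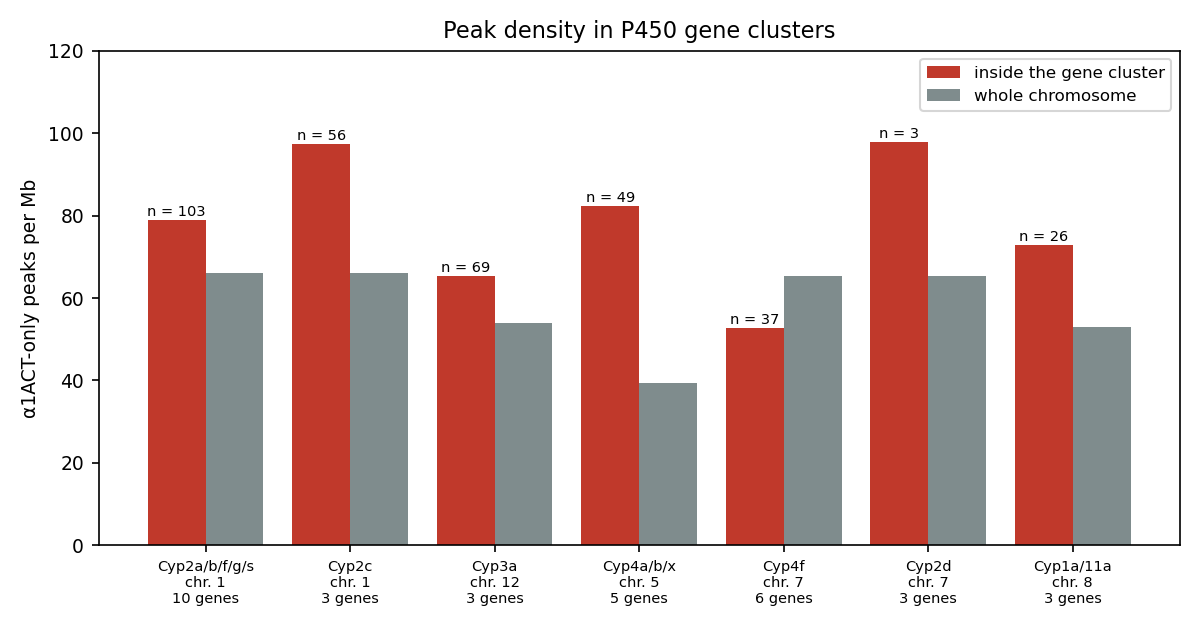
Peaks per Mb within each of the 7 Cyp clusters beside the peaks per Mb of the chromosome that holds it, with the number of peaks inside the cluster as n. The Cyp4a/Cyp4b/Cyp4x cluster is at 82.2 against 39.5 for chromosome 5, and the Cyp4f cluster at 52.7 is below chromosome 7 at 65.4.

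The rn5 placement of Cyp2b1 differs from the current assembly. The table puts it on chromosome 7 from 99752108 to 99775780, beside Mtss1 and Sqle, and GRCr8 puts it on a differently named chromosome beside Axl, Cyp2s1 and Cyp2b2. It was the only Cyp gene on a differently named chromosome. Of its 97 peaks, 90 lay downstream of the TSS, 1 of them inside the gene, and 7 upstream. The 50 to 100 kb interval downstream held 24 peaks and the 150 to 200 kb interval 38. Sqle, squalene epoxidase of cholesterol synthesis, had 106 assigned peaks of its own and none within its promoter distance. The part of the rn5 placement in these counts was not tested.

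**Figure D4:**
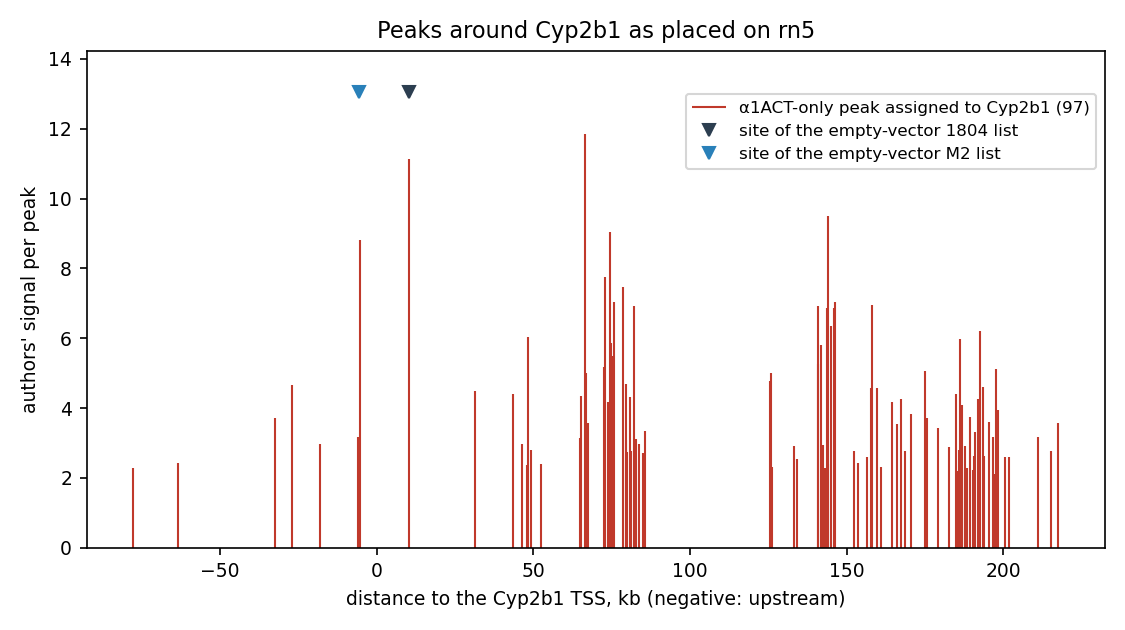
Signal of the 97 peaks assigned to Cyp2b1 against distance from its TSS in kb, with the empty-vector sites of the same region marked. The peaks lie mostly downstream, with 38 between 150 and 200 kb, and the empty-vector sites lie 10178 bp downstream and 5509 bp upstream.

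The other 3 lists are short, and few of their peaks stood near Cyp genes. Within 100 kb of a Cyp gene stood 1 of the 81 peaks of the α1ACT M2 list, 2 of the 272 peaks of the empty-vector 1804 list and 2 of the 244 peaks of the empty-vector M2 list. The number was 1086 of 161730 for α1ACT 1804. As shares of each list these were 1.23% for α1ACT M2, 0.671% for α1ACT 1804, 0.735% for empty-vector 1804 and 0.820% for empty-vector M2. The shares of the 3 short lists rest on 1 or 2 peaks each, so the lists cannot be set in an order. A site 43.0 kb outside Cyp2r1, at chr1:191121387-191121442, was in every list, with signals of 86.0 in α1ACT M2, 259 in α1ACT 1804, 118 in empty-vector 1804 and 108 in empty-vector M2. A site inside Cyp2b1 had a signal of 80.5 in α1ACT 1804 and 28.6 in empty-vector 1804. A second site, 5509 bp upstream of the same gene, had 82.6 in α1ACT 1804 and 53.1 in empty-vector M2. Neither site is in the annotated table, but table peaks of Cyp2b1 with signals of 11.1 and 8.81 lie 220 and 174 bp from them. In all, 3 of 997 Cyp peaks (0.301%, 0.0621 to 0.877%) lay within 1000 bp of an empty-vector peak, against 55 of 159452 table peaks (0.0345%), and all 3 were assigned to Cyp2b1. The scale of the signal between lists is not stated, and no peak of the other 3 lists had a signal under 14.0, while no Cyp peak of the table exceeded 11.9. The sites above that an empty-vector list shares are not in the table. The value of 11.9 is thus the highest Cyp signal only among the peaks the table keeps.

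Cyp promoters were poor in CpG. A RefSeq promoter sequence was matched for 54 of the 66 Cyp genes, and their median observed over expected CpG was 0.187, against 0.676 over the table genes with a sequence. Promoters with a ratio of at least 0.6 and at least 50% G and C were called CpG-rich, a class chosen after seeing the data. It held 8 of 54 Cyp genes (14.8%), against 6176 of 11288 curated table genes (54.7%). Of the 8 CpG-rich Cyp genes, 3 had a promoter peak (37.5%, 8.52 to 75.5%), against 63.6% of all CpG-rich table genes. They were Cyp51, Cyp20a1 and Cyp2s1, and those without one were Cyp1b1, Cyp26a1, Cyp26b1, Cyp46a1 and Cyp2u1. Of the 46 CpG-poor Cyp genes, 6 had a promoter peak (13.0%, 4.94 to 26.3%), against 21.1% of all CpG-poor table genes. In each class the interval of the Cyp share holds the share of the table genes, so a difference within a class was not detectable at these numbers.

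**Figure D5:**
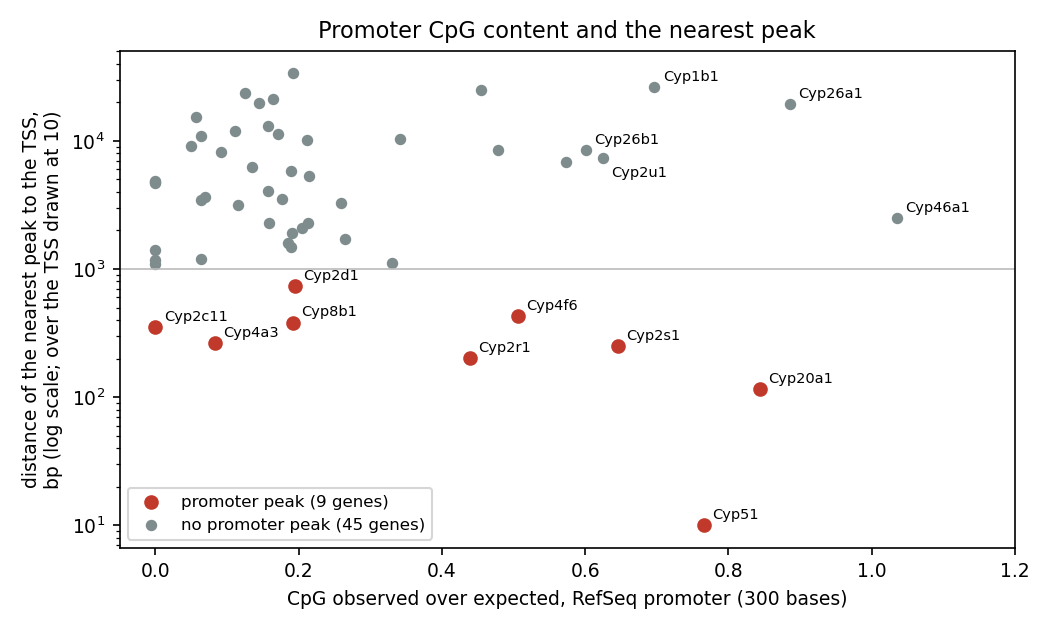
Distance in bp from the TSS to the nearest peak against the observed over expected CpG ratio of the promoter sequence, for the 54 Cyp genes with a RefSeq sequence. Most Cyp genes lie at low ratios, around the median of 0.187, and the CpG-rich genes Cyp51 and Cyp20a1 have a peak at or near the TSS.

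Of the 4 motifs, TATAAA and AGGTCA were in a larger share of Cyp promoters than of all promoters. TATAAA was in 17 of 54 Cyp promoters (31.5%, 19.5 to 45.6%), against 14.3% of all 27457 RefSeq promoters, and AGGTCA in 20 (37.0%, 24.3 to 51.3%), against 15.7%. GGGCGG was in 16 (29.6%, 18.0 to 43.6%), against 34.9%, and GCGTG in 16 (29.6%, with the same interval), against 31.1%, and for these a difference was not detectable with 54 sequences. Among the 9 Cyp genes with a promoter peak, GGGCGG was in 5 and TATAAA in 2, whereas among all table genes with a promoter peak GGGCGG was in 70.3% and TATAAA in 6.29%. The 27457 promoters are not limited to table genes, of which 11390 have a sequence, whereas the 54 Cyp genes are all in the table. A match is only a run of letters, counted on both strands, and does not show that a factor binds.

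In 8 lists of other genes, the share with a promoter peak ran from 16.7% of liver markers to 72.2% of cholesterol synthesis genes. The lists count genes with and without an assigned peak, so 32.9% of curated genes is their background. Only the intervals of electron transfer partners and cholesterol synthesis lie above that background. All shares were above the 11.5% of curated Cyp genes, but the intervals of heme synthesis, conjugation and liver markers hold 11.5%. Of the electron transfer partners, 7 of 10 had a promoter peak (70.0%, 34.8 to 93.3%), including Cyb5b, a cytochrome b5, with a signal of 21.1, and Pgrmc2, a heme-binding membrane protein, with 8.79. Por, the reductase that serves the microsomal P450s, had its nearest peak 2100 bp away. Of the cholesterol synthesis genes, 13 of 18 had one (72.2%, 46.5 to 90.3%), including Hmgcs1 with 7.46 and Sc5d with 7.40. Heme synthesis had 3 of 9 (33.3%, 7.49 to 70.1%), with Uros at 9.75 and Fech at 4.92. Transcriptional regulators of P450 genes had 11 of 26 (42.3%, 23.4 to 63.1%), with the retinoic acid receptor Rarg at 13.0 and Arnt2 at 7.45. The nuclear receptor gene Nr1i2 and Ahr had none, and their nearest peaks lay at 26463 and 9731 bp. Steroid synthesis partners had 6 of 15 (40.0%, 16.3 to 67.7%), with Hsd17b12 at 11.3 and the cholesterol carrier Stard3 at 8.91. Conjugation and epoxide hydrolysis genes had 4 of 13 (30.8%, 9.09 to 61.4%), including the glutathione transferase gene Gstp1 with 3.50. Markers of chromaffin cells, the origin of PC12, had 7 of 16 (43.8%, 19.8 to 70.1%), including Phox2a, a transcription factor of the sympathoadrenal lineage, with 9.74. Liver markers had 2 of 12 (16.7%, 2.09 to 48.4%), with Fgg at 3.36 and Apoc3 at 3.18. Peaks do not measure expression, and the lists are small.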

How the data were processed

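Peak lists deposited by the authors were used for the 4 precipitated libraries, with their annotated table; no list of the 2 inputs was used here. Per the submitters' processing notes the build is rn5 and the tools were ChIPseeker, DiffBind, HOMER, BWA 0.7.5a and FastQC 0.11.2, with roles not stated. The signal and the −log10 q-value of each peak are the authors' deposited values, whereas read depth and signal scaling were not stated in labels or files. Every peak is 56 bp wide. Coordinates are 1-based. The deposited distances run to the far edge of a peak for genes on the plus strand and to the near edge on the minus strand; either edge for all genes gives the same 9 Cyp genes with a promoter peak.

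The table was joined to the signal by chromosome and start, with Python 3.11.15, pandas 2.3.3, numpy 2.4.6 and scipy 1.17.1. Cyp members were matched to RefSeq by gene ID, all 66 of 66. Genes named with values are all Cyp genes with a promoter peak, the 5 with the highest distal peak, the 5 with the most peaks, each cluster, and in each other list the 2 of highest promoter signal, of which some are not reported here; further Cyp genes and the genes of known role without a promoter peak were named after their values were seen. The members and lists were chosen with earlier results of these data known. No test was made, since each group holds 1 library. The counting was checked on simulated data.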

Additional observations from a re-analysis of the deposited data

How the results depend on the processing

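The share of Cyp genes with a promoter peak, 13.6%, was 12.1% at 500 bp, 36.4% at 3000 bp, 4.55% with the upper 50% of peaks by signal and 1.52% with the upper 10%. All table genes gave 38.4%, 52.3%, 35.3% and 19.7% at these settings, so the Cyp share was the lower at each. The share of Cyp peaks at promoters was 2.91% at 3000 bp, against 7.65% of all table peaks. At 3000 bp, 33.3% of clustered and 39.4% of single Cyp genes had a peak. Near Cyp genes at 10 kb stood 0 peaks of the α1ACT M2 list, 1 of the empty-vector 1804 list and 1 of the empty-vector M2 list. These moves follow from the wider or narrower distance and the fewer peaks counted. The promoter over distal signal ratio ran from 0.926 with nearby peaks merged to 1.16 without clustered genes; without Cyp2b1 and Cyp2c6v1, an alternative chosen after seeing the data, it was 1.04. No paired analysis was possible because each group holds 1 library. Read depth is unknown, so its limit on weak peaks cannot be given.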
